A study of Mus musculus with 2 samples.

Results

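The splenic Ccl5-high cells are IL-10 reporter-positive CD4+ T cells from spleen that were chosen by their transcripts: Ccl5 took at least 0.5% of the unique molecular identifiers (UMIs, each counting 1 captured RNA molecule) of the cell, no Foxp3 UMI was seen, and the UMIs of 5 cell cycle genes summed to fewer than 5. Cells with a mitochondrial share of 6% or more were left out. 134 cells met the rule, of 1738 barcodes in the splenic library and 3212 in the whole series. The other splenic cells that passed the same limits on mitochondrial share, Foxp3 and cycling, 963 in number, were the comparison throughout, so that the Ccl5-high cells made up 12.2% [10.3 to 14.3] of these 1097 cells. Brackets hold exact 95% intervals, which cover counting error only.

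The mice were IL-10 eGFP, Foxp3 mRFP double reporter animals, 8 to 16 weeks old, that had received 2 intraperitoneal injections of anti-CD3 (clone 2C11, 15 µg each, on day 0 and day 2) and were killed 4 h after the second. Anti-CD3 activates T cells and expands IL-10-producing ones, and no library from untreated mice was analysed here. From eGFP+ CD4+ T cells, Foxp3+ cells included, 1 10x library was made from spleen and 1 from small intestine, and the number of mice behind each is not given in the sources used here. With 1 library per tissue there is no replicate check and no test: cells of a library are not replicates, and tissue and library cannot be told apart.

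T regulatory type 1 (TR1) cells are CD4+ T cells that make the anti-inflammatory cytokine IL-10 without the transcription factor Foxp3, and they are commonly recognised by the surface molecules LAG-3 and CD49b together with other co-inhibitory receptors. Granzyme B, a protease stored in cytotoxic granules, is a known tool of their suppression of other immune cells. CCL5, CCL3 and CCL4 are chemokines that draw in other leukocytes, NKG7 is a granule protein of cytotoxic lymphocytes, and ID2 holds E protein transcription factors in check and is typical of effector lymphocytes.

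The Ccl5-high cells held 638690 UMIs, with a median of 4359 per cell and a range of 1855 to 9857. The other splenic cells held 5062445 UMIs, with a median of 4775 and a range of 1613 to 18757. The median mitochondrial share was 2.14% and 2.55%. No barcode was shared between the libraries of spleen and small intestine (0 barcodes). In all, 168 splenic cells had Ccl5 at 0.5% or more, and the rule left out 29 of them as cycling, 5 for a Foxp3 UMI, 1 of which was also cycling, and 1 for its mitochondrial share.

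Every one of the 134 members had a UMI of Cd3d, Cd3e or Cd3g, which encode the signalling chains of the T cell receptor, and 94 had a UMI of Cd4 (70.1% [61.6 to 77.7], beside 64.9% of the other cells). Cd4 stood at 329 CPM [286 to 376] in the members and 225 CPM [212 to 238] in the other cells, where CPM is the UMIs of the gene per 1000000 UMIs of the group. Cd8a had 0 UMIs in the members and Cd8b1 had 4 UMIs in 3 cells. Of the defining genes of natural killer (NK) cells, Ncr1 and Klra8 were at 0, Tyrobp had 2 UMIs and Fcer1g 3, and the 6 genes of that list summed to 12 UMIs (18.8 CPM, against 5.53 CPM in the other cells), 7 of them of Klrb1c, the most abundant. The 9 myeloid genes summed to 20 UMIs (31.3 CPM, against 17.2 CPM in the other cells), led by Lyz2 with 11 UMIs in 5 cells, 63.6% of them in a single cell, and Csf1r, Cd14 and S100a8 were at 0. The B cell genes Cd79a and Ms4a1, the platelet genes Pf4 and Ppbp and the erythroid genes Hbb-bs and Hba-a1 were at 0. Cd79b, another B cell gene, had 1 UMI in the members and 20 in the other cells. The plasma cell genes summed to 4 UMIs in the members, all of Jchain in 2 cells, and 5 in the other cells (6.26 against 0.99 CPM). Zbtb16, which marks NKT cells, had 10 UMIs in 6 members and stood at 15.7 CPM against 3.95 CPM in the other cells (log2 ratio 1.99 [0.73 to 3.15]), and the part of such cells in the results was not tested. By these markers the members were T cells, with Cd4 and almost no CD8 transcripts. Because the files list no T cell receptor constant genes, gamma-delta T cells could be looked for only through Sox13 and Blk, both at 0 in the members.

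The TR1 markers were seen only in part. Il10 was present at 564 CPM [507 to 625] in the members and 395 CPM [378 to 413] in the other cells, all of which had been sorted on the IL-10 reporter. Lag3, which encodes LAG-3, was abundant in both groups. Itga2, which encodes CD49b, had 1 UMI in the members and 4 in the other cells, so that the pair of surface molecules by which TR1 cells are sorted could not be followed at this depth. The reporter transcripts did not help, since the eGFP row held 1 UMI in the members and the mRFP row 0. The members are therefore called Ccl5-high here. In the other splenic cells the mRFP row, the Foxp3 reporter, held 30 UMIs. Some of these cells may thus be Foxp3+ although no Foxp3 UMI was seen, and their part in the comparison was not tested.

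Ccl5 itself only describes the choice. It took a median of 2.55% of the UMIs of a member, from 0.505% to 15.5%, which was 12 to 704 UMIs with a median of 119. Among the other splenic cells 615 had no Ccl5 UMI, 329 had some but under 0.25%, and 19 had 0.25% to under 0.5%. In the members 30 lay between 0.5% and 1%, 30 between 1% and 2%, and 74 at 2% or above. The splenic cells thus formed no empty gap at the limit, as the histogram of Ccl5 shares shows.

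**Figure D1:**
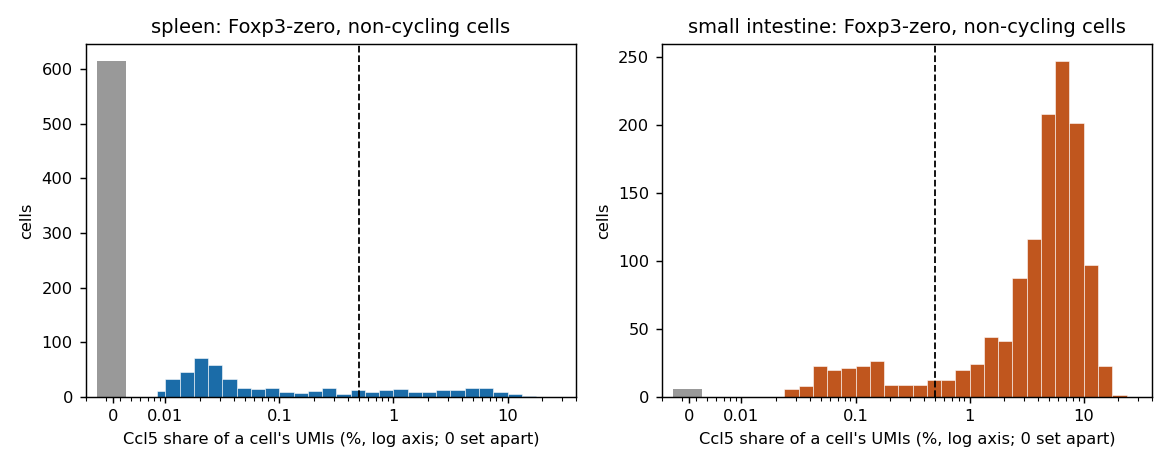
Number of cells by the share of UMIs that Ccl5 took, for Foxp3-zero, non-cycling cells of spleen (left) and small intestine (right), with cells without a Ccl5 UMI as a grey bar and the limit of 0.5% as a dashed line. In spleen 134 of 1097 cells lie to the right of the line, in small intestine 1125 of 1293.

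The cells just inside and just outside the limit were alike in part of their transcripts. Gzmb stood at 3308 CPM [2949.7 to 3697] in the 19 cells from 0.25% to under 0.5% and at 2874 CPM [2608 to 3159] in the 30 members from 0.5% to under 1%. Cxcr6, a chemokine receptor of tissue T cells, stood at 640.2 CPM [489 to 824] and 770.4 CPM [636 to 925] in these bands. Tnfsf8, which encodes CD30 ligand, was at 85.4 CPM just outside and 33.5 CPM just inside, against 433 CPM in cells without Ccl5. Ccl4 was lower outside, at 1152 CPM [945 to 1391], than inside, at 2887 CPM [2621 to 3173], and so were Nkg7, at 2401 and 3678 CPM, and Id2, at 982 and 1561 CPM. Ccl3 was not, at 363 CPM [251 to 507] outside and 281 CPM [203 to 380] inside. Plac8 was higher outside, at 1088 CPM [887 to 1321], than inside, at 690 CPM [563 to 837].

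Within the members, genes also differed in how they went with Ccl5. Ccl4 stood at 2887 CPM in the band from 0.5% to under 1%, at 3320.4 CPM in the next and at 7155 CPM [6876 to 7443] in the 74 members at 2% or more. Ccl3 stood at 281, 404 and 1379.6 CPM in the same bands, and Havcr2, which encodes the co-inhibitory receptor TIM-3, at 60.3, 132 and 202 CPM. Id2 was level over the members' bands, at 1561, 1594 and 1628 CPM. Lag3 was at 1185 CPM in cells without Ccl5, ran from 1288 CPM [1109 to 1487] to 1589.8 CPM [1345 to 1867] in the 3 bands from 0.25% to under 2%, and stood at 2288 CPM [2131 to 2453] in the band at 2% or more. Il10 ran from 363 to 587 CPM over the 4 bands from 0.25% upward, with overlapping intervals in the members.

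**Figure D2:**
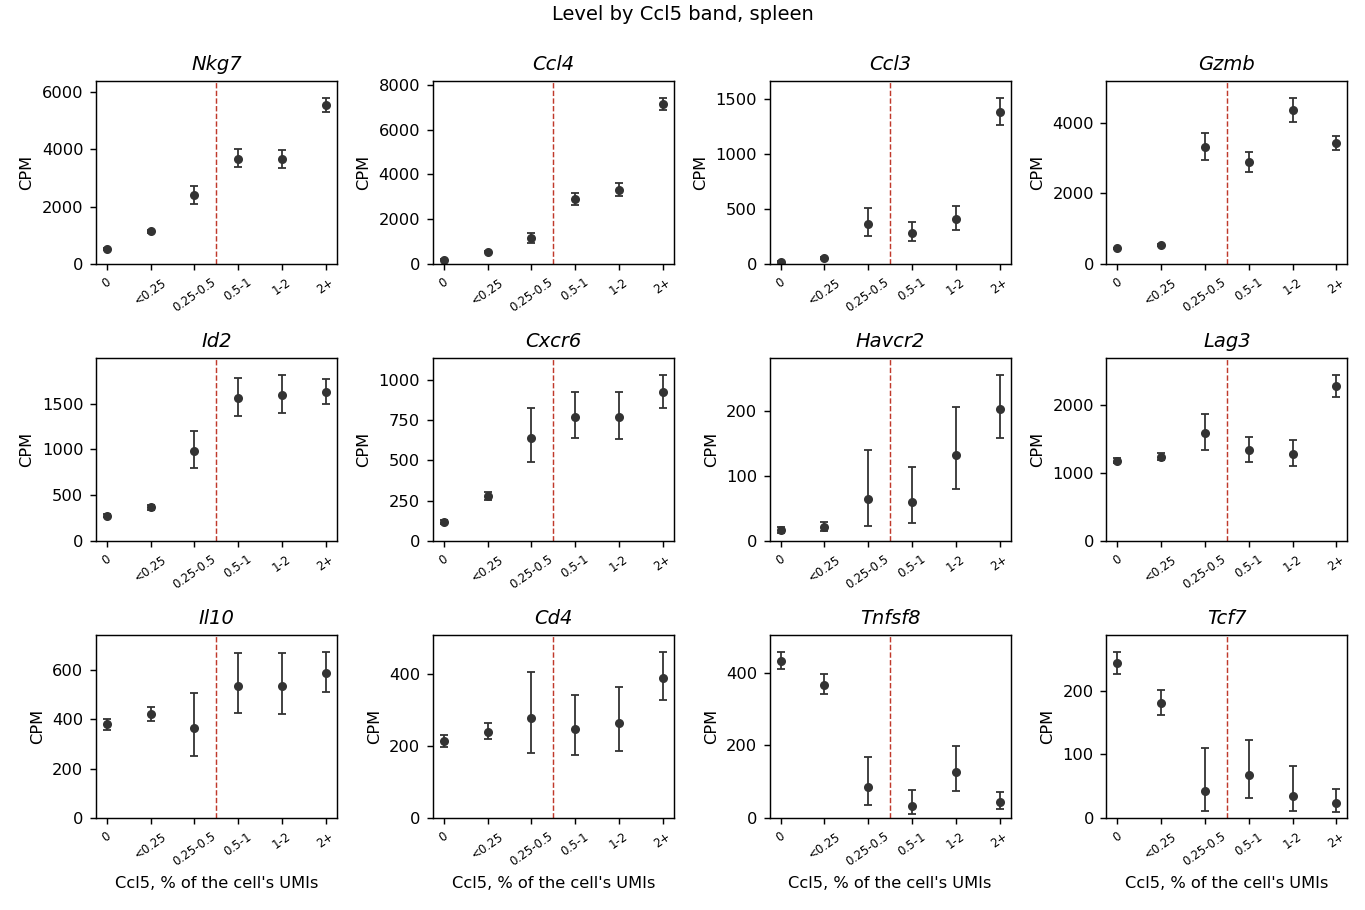
Level in CPM (UMIs of the gene per 1000000 UMIs of the band) of 12 genes in 6 bands of splenic cells by Ccl5 share, with exact Poisson 95% intervals; the dashed line is the limit of 0.5%. The bands hold 615, 329, 19, 30, 30 and 74 cells from left to right, and Gzmb is already at 3308 CPM in the third band while Ccl4 is highest in the last, at 7155 CPM.

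Across all genes the members differed from the other splenic cells in a small part of the transcriptome. Of 5261 genes with at least 100 UMIs in both groups together, 102 (1.94%) were at least 2-fold higher in the members and 219 (4.16%) at least 2-fold lower, and the median log2 ratio over all of them was -0.03. The gene lists are read against these shares. Lower genes were also the more numerous with a minimum of 50 UMIs (183 higher, 414 lower) and of 300 UMIs (35 and 60). With no minimum on the sum but at least 1 UMI in each group, which leaves out genes without a UMI in the smaller group, 1089 genes were higher and 785 lower. The intervals of all 102 higher genes lay above 0, and those of 45 lay wholly beyond 2-fold. Of the 219 lower genes 204 had intervals below 0 and 32 had intervals wholly beyond 2-fold. A log2 ratio here is that of the CPM of the members to the CPM of the other splenic cells, with an exact binomial interval. The 15 genes highest by the lower bound of that interval were Ccl5, Ccl3, Ccl4, Csf1, Serpina3f, Gzmb, Havcr2, Nkg7, Dcp1b, Plac8, Id2, Slamf7, Cxcr6, Serpinb9 and Serpinb6b. The 15 lowest by the upper bound, of those reported here, were Spp1, Ccr7, Dapl1, Tnfsf8, Lif, Igfbp4, Tcf7, Nsg2, Actn1, Kcnn4, Adk, Tespa1, Rgs10, Cd200 and Lef1.

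**Figure D3:**
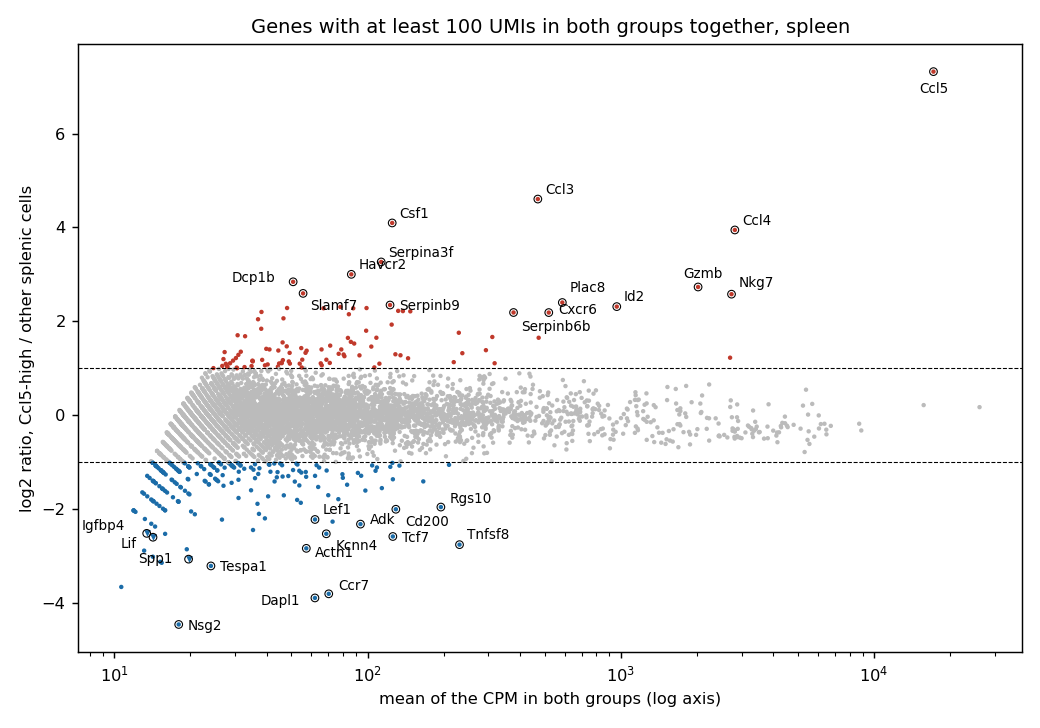
Log2 ratio of CPM in the 134 Ccl5-high cells to CPM in the 963 other splenic cells against the mean of both CPM values (log axis), 1 point per gene for 5261 genes. Red points are at least 2-fold higher (102 genes), blue points at least 2-fold lower (219 genes), triangles are genes without a UMI in the members, set at the bound that 3 UMIs give, and the 15 leading genes of each side are circled and named.

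Chemokine genes led the list. Ccl3 stood at 903 CPM [831 to 980.2] in the members and 37.1 CPM [32.02 to 42.8] in the other cells, or a log2 ratio of 4.60 [4.36 to 4.85], and 64 members held a UMI of it, with up to 49 UMIs in a cell and a median of 0. Ccl4 stood at 5295 CPM [5118 to 5477] and 344 CPM [328 to 360.0], a log2 ratio of 3.95 [3.86 to 4.03]. In a member it had 0 to 205 UMIs with a median of 4.50, so the members were far from even in it. These genes lie on chromosome 11 (GRCm38), Ccl5 at chr11:83525778-83530518, Ccl3 at chr11:83647844-83649355 and Ccl4 at chr11:83662584-83664683. Of the other ligands on the list Xcl1, Ccl20 and Ccl1 had 0 UMIs in the members and Cxcl10 had 1. Csf1, the growth factor of macrophages, was at 236 CPM [200.2 to 277] against 13.8 CPM [10.8 to 17.5], a log2 ratio of 4.10 [3.68 to 4.53], from 40 members.

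To compare how many cells held a transcript, UMIs were drawn at random until each cell kept 2000, which left out 3 members and 22 other cells. Splenic cells with UMIs of both Ccr7 and Tcf7, 191 in number with a median of 5151 UMIs, were set beside them. Single cells among them held up to 53 UMIs of Ccl4 and 41 of Nkg7, so their shares are not those of free RNA alone. Ccl4 was then seen in 62.6% [53.7 to 70.9] of members, 7.76% [6.13 to 9.66] of the other cells and 3.16% [1.17 to 6.75] of the Ccr7 and Tcf7 cells. Ccl3 was seen in 38.9%, 2.55% and 0.526% of these groups. Nkg7 was seen in 93.9% [88.3 to 97.3] of members, 30.7% of the other cells and 13.7% of Ccr7 and Tcf7 cells, and Ccl5 in 17.4% of the latter. Part of the Nkg7 and Ccl5 seen in these cells may be free RNA, which was not measured apart. Without thinning, Ccl4 was seen in 68.7% of members and 14.4% of the other cells.

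Genes of cytotoxic granules were mostly higher, and unevenly so. Of the 12 genes on this list 8 reached 100 UMIs, 5 of which were at least 2-fold higher and 0 at least 2-fold lower, with a median log2 ratio of 2.19. Gzmb (chr14:56258838-56262260) stood at 3509 CPM [3365 to 3657] against 528 CPM [508 to 549], a log2 ratio of 2.73 [2.65 to 2.81]. Its UMIs per member ran from 0 to 155 with a median of 4. Nkg7 (chr7:43437073-43438249) was spread more evenly, with 0 to 80 UMIs and a median of 18 in a member, and stood at 4686 CPM [4519.8 to 4857] against 784 CPM [760.2 to 809] (2.58 [2.51 to 2.65]).

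Gzmk, which encodes granzyme K, had a log2 ratio of 2.28 [1.89 to 2.66] and Ctsw, which encodes the protease cathepsin W, one of 2.15 [1.76 to 2.54]. Gzma had a log2 ratio of 2.22 [1.91 to 2.53] in the sum, but it was seen in only 15 members and a single cell gave 50.4% of its 139 UMIs. Prf1, which encodes the pore-forming protein perforin, had 11 UMIs in 8 members and 12 in the other cells, or 17.2 against 2.37 CPM (2.86 [1.54 to 4.17]). Srgn, the proteoglycan core of granules in many leukocytes, was at -0.04 [-0.12 to 0.03] on the log2 scale, and Lamp1, a membrane protein of all lysosomes, was lower in the members, at -0.93 [-1.44 to -0.45].

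Serpins that inhibit granzymes and other proteases went the same way. Of 6 genes on that list 5 reached 100 UMIs and 3 of these were at least 2-fold higher. Serpinb9, which encodes an inhibitor of granzyme B, had 205 CPM [171 to 243] in the members and 40.3 CPM [34.96 to 46.2] in the other cells, or a log2 ratio of 2.35 [2.02 to 2.67]. Serpinb6b had a log2 ratio of 2.19 [2.01 to 2.37] and was seen, after thinning, in 51.9% of members, 17.5% of the other cells and 11.6% of Ccr7 and Tcf7 cells. Serpina3g had one of 1.67 [1.47 to 1.86] and its neighbour gene Serpina3f, a near copy whose reads the counting may have split, one of 3.27 [2.89 to 3.65].

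Co-inhibitory and TR1-associated surface molecules were mostly higher in the members. Of 12 genes 10 reached 100 UMIs, 6 of which were at least 2-fold higher and 0 at least 2-fold lower, with a median log2 ratio of 1.44. Havcr2 stood at 153 CPM [125 to 187] against 19.2 CPM [15.5 to 23.4], a log2 ratio of 3.001 [2.58 to 3.42], and was seen after thinning in 23.7% [16.7 to 31.9] of members, 3.08% [2.07 to 4.40] of the other cells and 0.526% of Ccr7 and Tcf7 cells. Lilrb4a, which encodes an inhibitory receptor, had a log2 ratio of 2.28 [1.92 to 2.64]. Lilr4b, a gene of the same cluster with similar sequence, had one of 2.31 [1.89 to 2.71]. Pdcd1, which encodes PD-1, had one of 1.32 [1.09 to 1.54], Entpd1, which encodes the ectoenzyme CD39, one of 1.70 [1.04 to 2.34], and Cd160 one of 1.55 [1.02 to 2.06], with 27.3% of its 44 UMIs in a single cell.

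Lag3 differed by less than 2-fold, at 1841 CPM [1738 to 1949.6] in the members and 1214 CPM [1183 to 1244] in the other cells (0.60 [0.51 to 0.69]). Ctla4, which encodes the co-inhibitory receptor CTLA-4, had a log2 ratio of 0.47 [0.36 to 0.57] and Icos, a costimulatory receptor, one of 0.25 [0.12 to 0.38]. Tigit, another co-inhibitory receptor, had 24 UMIs in the members and a ratio of -0.10 [-0.78 to 0.51], an interval that holds both directions.

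A larger share of the members than of the other cells held several of these transcripts at once. Out of Lag3, Havcr2, Tigit, Pdcd1 and Itga2, a set made after its values were seen, at least 3 were seen in 13 of 131 members thinned to 2000 UMIs (9.92% [5.39 to 16.4]) and in 26 of 941 other cells (2.76% [1.81 to 4.02]). In Ccr7 and Tcf7 cells it was 1 of 190 cells (0.526% [0.0133 to 2.90]). None of these splenic cells held all 5 of them, and 12 members held 0. The share depended on depth: without thinning it was 27.6% of members and 12.4% of the other cells. Among intestinal Ccl5-high cells, chosen by the same rule, at least 3 were seen in 4.04% [2.90 to 5.46] and among the other intestinal cells in 3.29% [1.08 to 7.51], so the intervals overlapped within the small intestine.

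**Figure D4:**
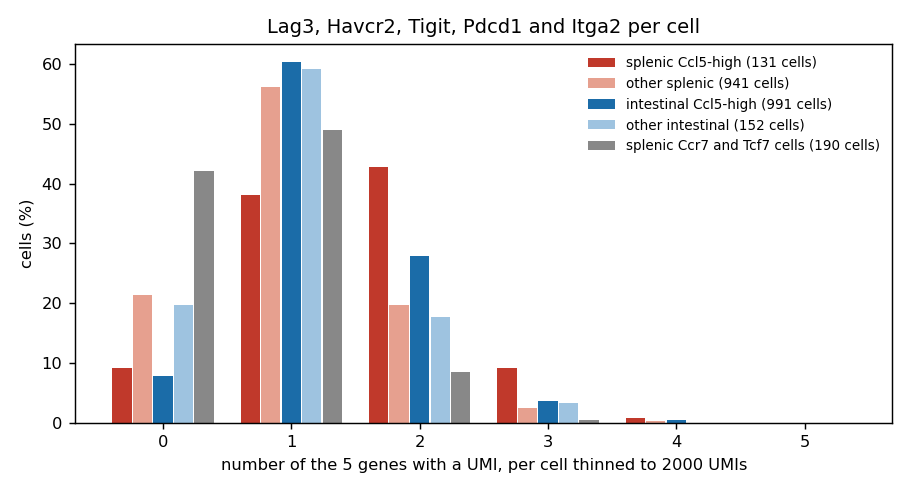
Share of cells (bars, in percent) by the number of the 5 genes Lag3, Havcr2, Tigit, Pdcd1 and Itga2 with a UMI, in cells thinned to 2000 UMIs, for 5 groups of cells. The splenic Ccl5-high cells are most often at 2 genes (56 of 131 cells) and the other splenic cells at 1 (529 of 941).

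Il10 and the transcription factors known to act on it were mostly within 2-fold. Of 15 genes on this list 13 reached 100 UMIs, 1 of which (Id2) was at least 2-fold higher and 2 at least 2-fold lower, with a median log2 ratio of 0.33. Il10 had a log2 ratio of 0.51 [0.35 to 0.68], and in a member it had 0 to 28 UMIs with a median of 2, against a median of 1 in the other cells. After thinning it was seen in 48.1% [39.3 to 56.99] of members, 36.9% [33.8 to 40.05] of the other cells and 15.3% of Ccr7 and Tcf7 cells. Maf, which drives Il10 in T cells, had a ratio of 0.28 [0.14 to 0.41], Prdm1, which encodes Blimp-1, one of 0.78 [0.37 to 1.17] and Bhlhe40, which is known to repress Il10, one of 0.86 [0.50 to 1.20].

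Id2 (chr12:25093799-25097140) stood apart from the rest of that list, at 1605 CPM [1508 to 1706] against 323 CPM [307 to 339], a log2 ratio of 2.31 [2.20 to 2.43], with 0 to 26 UMIs in a member and a median of 6. Its relative Id3 had 0 UMIs in the members and 37 in the other cells, 7.31 CPM, which is above the 4.70 CPM that 3 UMIs amount to in the members. Irf4 and Egr2, transcription factors induced by the T cell receptor, were the 2 lower genes, at -1.29 [-1.96 to -0.69] and -2.03 [-4.33 to -0.44], the latter from 3 UMIs. Nr1h3, which encodes LXR alpha, had 2 UMIs in the members and 7 in the other cells (1.18 [-2.12 to 3.57], an interval that holds 0).

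Of 12 genes of the Th1 axis 10 reached 100 UMIs, 2 of which were at least 2-fold higher and 0 at least 2-fold lower (median log2 ratio 0.72). Ifng, which encodes the Th1 cytokine interferon-gamma, stood at 197 CPM [164 to 235] against 51.8 CPM [45.7 to 58.4], a log2 ratio of 1.93 [1.61 to 2.24], and was seen after thinning in 28.2% [20.7 to 36.8] of members, 8.08% of the other cells and 3.68% of Ccr7 and Tcf7 cells. Il12rb2, a chain of the IL-12 receptor, had a ratio of 1.18 [0.75 to 1.60] and Runx3, a factor of cytotoxic lineages, one of 0.95 [0.60 to 1.29]. Tbx21, which encodes the Th1 factor T-bet, was at 0.36 [-0.25 to 0.92] and Eomes, its relative, had 5 UMIs in 4 members. Hopx, a homeodomain-only protein of effector T cells, was at 0.80 [0.02 to 1.51]. Cxcr3, a receptor of Th1 cells, was slightly lower, at -0.34 [-0.67 to -0.03].

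Receptors that guide T cells split into both directions. Of 13 genes 7 reached 100 UMIs, 2 of which were at least 2-fold higher and 3 at least 2-fold lower. Ccr2, a receptor for inflammatory chemokines, stood at 227 CPM [192 to 267] against 48.8 CPM [42.9 to 55.3], a log2 ratio of 2.22 [1.91 to 2.52]. Cxcr6 stood at 852 CPM [782 to 926] against 187 CPM [175 to 199] (2.19 [2.03 to 2.34]), with 0 to 23 UMIs in a member and a median of 2. The lower genes were Ccr7, which brings T cells into lymph nodes and the splenic T cell zone, at -3.80 [-5.25 to -2.67], Cxcr5, which leads to B cell follicles, at -1.86 [-2.71 to -1.13], and S1pr1, which lets T cells leave lymphoid organs, at -1.80 [-2.65 to -1.06].

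Genes of naive and recirculating T cells were mostly lower in the members. All 9 genes on the list reached 100 UMIs, 7 were at least 2-fold lower and 0 at least 2-fold higher, with a median log2 ratio of -2.22. Ccr7 had 6 UMIs in 4 members and 664 UMIs in 258 of the other cells. Tcf7, which encodes the stem-like factor TCF-1, stood at 36.01 CPM [22.8 to 54.03] against 216 CPM [203 to 229], a log2 ratio of -2.58 [-3.25 to -1.99]. Lef1, the partner of TCF-1, had one of -2.22 [-3.10 to -1.46] and Il7r, the IL-7 receptor, one of -1.18 [-1.67 to -0.73]. Dapl1 had 5 UMIs in 2 members and 588 in 116 other cells. Igfbp4 had 0 UMIs in the members and 136 in the other cells, so that with 3 UMIs over the members as the floor its log2 ratio was -2.52 or lower. The exceptions were Klf2, a factor that keeps T cells quiescent, at -0.81 [-1.08 to -0.56], and Satb1, a chromatin organiser, at -0.04 [-0.25 to 0.17]. The other cells include the 191 cells with both Ccr7 and Tcf7, so a lower level here is relative to a mixture that holds such cells.

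Genes of follicular helper T (Tfh) cells, which help B cells, were lower in part. Of 10 genes 8 reached 100 UMIs, 3 of which were at least 2-fold lower and 0 at least 2-fold higher (median log2 ratio -0.86). Tnfsf8 stood at 59.5 CPM [42.1 to 81.7] against 402 CPM [385 to 419.8], a log2 ratio of -2.76 [-3.26 to -2.29], with 23.7% of the members' 38 UMIs in a single cell. Slamf6, a receptor in contacts of T and B cells, had one of -1.55 [-2.07 to -1.08] and Izumo1r, which encodes folate receptor 4, one of -0.98 [-1.18 to -0.79]. Il21, the cytokine by which Tfh cells act on B cells, had one of -0.74 [-1.28 to -0.23]. Tox, a factor of Tfh and chronically stimulated T cells, was higher, with a ratio of 0.56 [0.28 to 0.83], and Sh2d1a, which encodes the adaptor SAP, was at -0.08 [-0.33 to 0.15], an interval that holds 0.

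Spp1, which encodes osteopontin, led the lower genes, with 0 UMIs in the members and 199 in the others, but these came from 10 cells. Lif, a cytokine of the IL-6 family, had 0 UMIs in the members and 144 UMIs in 102 other cells, a log2 ratio of -2.60 or lower with the same floor. Kcnn4, a potassium channel opened by calcium, had one of -2.52 [-3.44 to -1.74], Rgs10, a regulator of G protein signals, one of -1.96 [-2.39 to -1.55] and Cd200, the ligand of an inhibitory receptor, one of -2.002 [-2.55 to -1.50]. Nsg2 had 1 UMI in the members and 174 in the other cells, and Tespa1, which acts in T cell receptor signalling, 3 and 220. Actn1, an actin cross-linker, had a ratio of -2.83 [-3.97 to -1.90] and Adk, which encodes adenosine kinase, one of -2.32 [-3.04 to -1.68]. Among the higher genes not yet described, Plac8 stood at 988 CPM [912 to 1068] against 187 CPM [175 to 199] (2.40 [2.25 to 2.55]), Slamf7, a receptor of cytotoxic and activated lymphocytes, at 95.5 against 15.8 CPM (2.60 [2.09 to 3.09]), and Dcp1b, of the mRNA decapping complex, at 89.2 against 12.4 CPM (2.84 [2.30 to 3.38]). Plac8 is also 1 of 5 genes by which the study named a TR1 subset from these samples, a choice that is no independent evidence. All 5 had ratios above 0 and 2 were at least 2-fold higher: beside Plac8, Ehd1, of the endosome recycling machinery, was at 1.53 [1.15 to 1.89], Furin, a proprotein convertase, at 0.54 [0.26 to 0.81], Ctsb, a lysosomal protease, at 0.53 [0.40 to 0.66] and Sdf4, a calcium-binding protein of the Golgi, at 0.33 [0.22 to 0.43].

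Other programs set the limits of the difference. None of the 5 Th17 genes reached 100 UMIs, and in the members Il17a, Il17f, Il22, Il23r and Ccr6 were at 0. Of the 10 genes of regulatory T (Treg) cells 7 reached 100 UMIs, and 1 was past 2-fold, Il2ra, a chain of the IL-2 receptor, at -1.33 [-1.92 to -0.79]. Ikzf2, which encodes HELIOS, was at -0.35 [-0.66 to -0.06], Nrp1, which encodes neuropilin-1, at 0.66 [0.10 to 1.18] and Tnfrsf18, which encodes GITR, at 0.46 [0.33 to 0.59]. The other cells held 30 UMIs of the Foxp3 reporter mRFP, and the part of Foxp3+ cells in these Treg ratios was not tested. All 11 genes of MHC class I presentation were above 0 and none was past 2-fold, with a median log2 ratio of 0.24 and a range from 0.10 [-0.91 to 0.97] for Nlrc5, the transactivator of these genes, to 0.56 [0.32 to 0.78] for H2-T23, a non-classical heavy chain. B2m, the light chain of MHC class I, was at 0.24 [0.19 to 0.29], H2-Q7, another non-classical heavy chain, at 0.48 [0.32 to 0.64], the transporter gene Tap1 at 0.27 [-0.03 to 0.57] and the proteasome gene Psmb9 at 0.30 [0.05 to 0.54]. The intervals of Nlrc5, Psmb8, Tap1, Tap2 and Tapbp held 0. Of 10 interferon-stimulated genes 2 were at least 2-fold lower, Iigp1, an immunity-related GTPase, at -2.10 [-3.24 to -1.16] and Ifit3 at -1.19 [-2.54 to -0.11], and the other 8 were within 2-fold, with Gbp2 at 0.80 [0.32 to 1.25], Ifit1 at -0.65 [-1.55 to 0.14] and Isg15 at 0.13 [-0.17 to 0.43]. These genes therefore gave no common direction.

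Of 10 S100, galectin and annexin genes 9 reached 100 UMIs, all 9 had ratios above 0, though the intervals of S100a10 and Vim held 0, and 1, Ahnak, at 1.40 [0.999 to 1.79], was past 2-fold (median log2 ratio 0.56). S100a4, a calcium-binding protein of effector and memory T cells, had a ratio of 0.89 [0.72 to 1.07], Lgals1, which encodes galectin-1, one of 0.66 [0.58 to 0.73] and Lgals3, which encodes galectin-3, one of 0.67 [0.46 to 0.88]. Of 12 early response genes of the T cell receptor 8 reached 100 UMIs, and apart from Egr2 none was past 2-fold, with Dusp1, a phosphatase that ends MAP kinase signals, at 0.72 [0.45 to 0.98], its relative Dusp2 at 0.62 [0.48 to 0.76], the transcription factor gene Egr1 at 0.54 [0.04 to 1.02] and Nr4a1, which encodes NUR77, at -0.51 [-1.21 to 0.12]. In the list of 10 integrin and retention genes 7 reached 100 UMIs, with Cd7 at 2.28 [1.75 to 2.80] the higher and Cd69, an early activation and retention molecule, at -1.79 [-2.47 to -1.18] the lower gene past 2-fold, while the integrin chains Itgb2 and Itgb7 were at 0.67 [0.46 to 0.87] and -0.48 [-0.71 to -0.25]. The gut integrin gene Itgae had 1 UMI in the members and Itga1 1.

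All 10 genes of ribosome biogenesis and growth had log2 ratios below 0, though the interval of Odc1, which encodes ornithine decarboxylase, held 0 (-0.26 [-0.61 to 0.08]), and 2 were at least 2-fold lower in the members, with a median of -0.65. Myc, the driver of that program, had a ratio of -1.21 [-1.90 to -0.59] with 40.9% of its 22 UMIs in a single member, Nolc1, a nucleolar protein, one of -1.60 [-2.17 to -1.09], Srm, which encodes spermidine synthase, one of -0.90 [-1.41 to -0.43] and Npm1, an abundant nucleolar protein, one of -0.70 [-0.85 to -0.56]. All 80 genes with 100 UMIs and an Rpl or Rps symbol, most of them cytosolic ribosomal protein genes, had ratios below 0 as well, though the intervals of Rpl27, Rpl7a, Rpl7l1, Rps19bp1 and Rps27l held 0, and none was 2-fold lower, with a median of -0.36. Their UMIs were 214995 CPM of the members and 275247 CPM of the other cells. A CPM is a share, so a lower share of ribosomal transcripts and a higher share of others cannot be told apart.

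The members were not uniform among themselves. Of Nkg7, Ccl4, Id2 and Gzmb all 4 were seen in 65 members (48.5% [39.8 to 57.3]), 3 in 44 members, 2 in 18, 1 in 6 and 0 in 1. Among the other splenic cells all 4 were seen in 42 of 963 (4.36%) and in Ccr7 and Tcf7 cells in 3 of 191 (1.57%). These markers were themselves chosen from earlier results on these cells, so this count describes the choice and is no evidence of its own.

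The members were split at a Gzmb share of 0.1%, which lies at their median share of 0.102% and so makes nearly even groups by construction: 68 had 0.1% or more and 66 had less, 42 of these without a UMI of Gzmb. The Gzmb-rich members had a median of 4868.5 UMIs and a median Ccl5 share of 3.50%, the Gzmb-poor members 3782.5 UMIs and 1.95%. Serpinb6b went with Gzmb, at 838 CPM in the rich and 332 CPM in the poor members (log2 ratio 1.34 [0.997 to 1.69]), as did Serpinb9 (1.19 [0.61 to 1.80]), Havcr2 (1.01 [0.36 to 1.71]), Ccr2 (0.96 [0.43 to 1.52]) and Klrc1 (2.67 [1.53 to 4.05]). Gzmk went the other way, at 83.02 CPM in the rich and 227 CPM in the poor members (-1.45 [-2.13 to -0.80]), with Tox (-0.98 [-1.50 to -0.46]), Cxcr3 (-1.13 [-1.78 to -0.49]), Maf (-0.61 [-0.87 to -0.35]) and Tcf7 (-1.88 [-3.52 to -0.47]). Il10, Lag3 and Cd4 did not differ beyond counting error between them, with ratios of 0.22 [-0.09 to 0.53], -0.10 [-0.26 to 0.07] and -0.24 [-0.65 to 0.16], all of them intervals that hold 0. Gzma had a ratio of 3.02 [2.17 to 4.01], but 50.4% of its UMIs were in the single cell named above. The part of depth in the differences between rich and poor members was not tested.

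Killer lectin-like receptors, better known from NK cells, were rare, and some of them were seen mostly in the members. None of the 10 genes on that list reached 100 UMIs, and Klrc3 and Klra7 had 0 in both groups. Klrd1, which encodes CD94, had 62 UMIs in 23 members and 15 UMIs in 10 other cells, a log2 ratio of 5.03 [4.20 to 5.95]. Klrc1, which encodes its inhibitory partner NKG2A, had 65 UMIs in 27 members and 34 in 12 others (3.92 [3.30 to 4.56]). Klrg1, a receptor of late effector cells, had 4 and 26 UMIs (0.29 [-1.69 to 1.81]) and Klrb1f 2 and 15 (0.08 [-3.09 to 2.18]), both with intervals that hold 0. In intestinal Ccl5-high cells Klrd1 was higher still, at 424 CPM against 97.1 CPM in the members, and Klrc1 was close, at 94.6 against 102 CPM. After thinning Klrc1 was seen in 9.92% [5.39 to 16.4] of members, 0.744% of the other cells and 0.526% of Ccr7 and Tcf7 cells.

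Members with a UMI of Klrd1, Klrk1, Klrc1, Klrc2, Klre1 or Klrb1c, a set chosen after its values were seen, numbered 36 (26.9% [19.6 to 35.2]), beside 23 of the other cells (2.39%). They were T cells by their transcripts: all 36 had a UMI of Cd3g, 25 had one of Cd4, and Cd4 stood at 317 CPM [244 to 405] in them and 334 CPM [282 to 393] in the remaining members. Gzmb stood at 6467 CPM in them and 2141 CPM in the remaining members, and Gzmk at 34.7 and 197 CPM. Zbtb16 had 7 UMIs in 4 of them. Their median depth was 5078 UMIs against 3931 in the remaining members, and the part of depth in these differences was not tested. With all such cells left out of both groups, the log2 ratio of Gzmb was 2.12 and that of Ccl4 3.76.

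The cycling cells that the rule left out also carried these markers. In the 29 splenic cells with Ccl5 at 0.5% or more and 5 or more cycling UMIs, Nkg7 stood at 4655 CPM, Gzmb at 3098 and Ccl4 at 11593, against 4686, 3509 and 5295 CPM in the members. Il10 stood at 342 CPM in them and at 564 CPM in the members. The 5 Ccl5-high cells with a Foxp3 UMI had Id2 at 462 CPM against 1605 CPM.

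The library of the small intestine was not used in choosing the splenic cells, and the same comparison was made there. There the rule gave 1125 Ccl5-high cells of 1293, or 87.01% [85.1 to 88.8], so that cells past the Ccl5 limit, a minority in spleen, were the majority, and 168 other cells were left to compare with. These intestinal groups also differed in markers of other T cells. A UMI of Cd8a or Cd8b1 was seen in 17.6% of the Ccl5-high and 2.98% of the other cells, and the 5 Th17 genes summed to 9.74 and 856 CPM. The part of such cells in the intestinal ratios was not tested. Of the 168 other intestinal cells 162 held a UMI of Ccl5, with a median of 4, 140 one of Gzma and 138 one of Gzmb. Part of these transcripts may be free RNA, which was not measured apart in this library either. Of 4907 genes 136 (2.77%) were at least 2-fold higher and 143 (2.91%) at least 2-fold lower in the intestinal Ccl5-high cells than in the other intestinal cells. Of the 14 leading higher genes of spleen other than Ccl5, which the rule fixes in both libraries, 12 reached 100 UMIs there, 11 had a log2 ratio above 0 and 10 were at least 2-fold higher. Ccl4 had a ratio of 4.78 [4.28 to 5.33], Ccl3 one of 3.96 [3.15 to 4.92], Nkg7 one of 2.23 [2.11 to 2.36] and Gzmb one of 2.19 [2.12 to 2.25]. Havcr2 had one of 1.06 [0.58 to 1.58], beside 3.001 [2.58 to 3.42] in spleen.

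Id2 and Cxcr6 were the 2 of these 12 that were not 2-fold higher. Id2 had a log2 ratio of 0.36 [0.27 to 0.45] in the small intestine, at 2209 CPM against 1722 CPM in the other intestinal cells, and Cxcr6 had one of -0.48 [-0.66 to -0.29]. The 2 leading genes under 100 UMIs were Serpina3f, lower in the intestinal Ccl5-high cells at -1.96 [-3.32 to -0.50] from 14 against 8 UMIs, and Dcp1b at 0.74 [-0.30 to 1.99]. Of the 15 leading lower genes only 5 reached 100 UMIs in the small intestine, all 5 with a ratio below 0, though the interval of Cd200 held 0 (-0.27 [-1.03 to 0.56]), and 2 past 2-fold, Tnfsf8 at -2.83 [-3.27 to -2.40] and Rgs10 at -1.25 [-1.46 to -1.03]. Under 100 UMIs, Tcf7 was at -4.07 [-5.12 to -3.10], Adk at -3.11 [-4.06 to -2.18], Tespa1 at -2.36 [-3.53 to -1.14] and Lef1 at -1.85 [-2.54 to -1.13]. The intervals of Ccr7 and Spp1 held 0, Lif and Nsg2 had UMIs in a single group, and Dapl1 and Igfbp4 had none. Of the 9 genes of naive and recirculating T cells 3 reached 100 UMIs there. Il7r had a ratio of -2.20 [-2.55 to -1.85], Klf2 one of -2.66 [-3.18 to -2.13] and Satb1 one of 0.43 [0.22 to 0.65]. Ccr7 had 41 UMIs in the intestinal Ccl5-high cells and 11 in the other intestinal cells, or 9.74 against 17.8 CPM (-0.87 [-1.86 to 0.24]). S1pr1, also under 100 UMIs, had a ratio of -3.42 [-5.03 to -1.92], beside the lower Tcf7 and Lef1 given above.

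**Figure D5:**
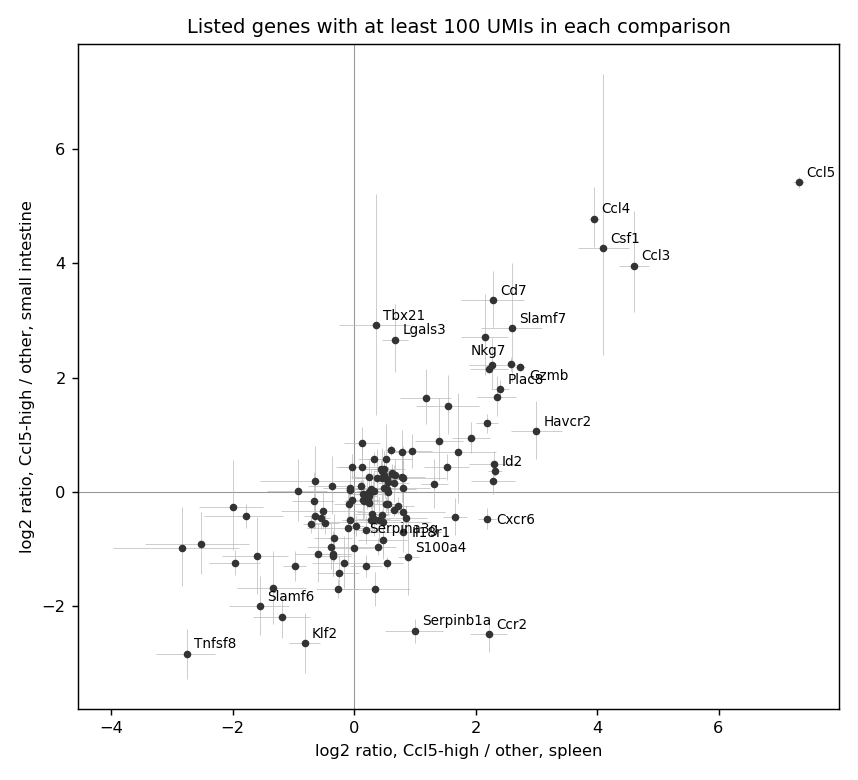
Log2 ratio of CPM in Ccl5-high cells to CPM in the other cells of the same library, spleen on the x axis and small intestine on the y axis, for listed and leading genes with at least 100 UMIs in each comparison; grey bars are exact 95% intervals. Ccl4, Ccl3, Nkg7 and Gzmb lie at the upper right, Tnfsf8 at the lower left, and Ccr2 at 2.22 and -2.49 at the lower right.

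The Ccl5-high cells of both libraries were also set beside each other. Of 4870 genes 226 (4.64%) were at least 2-fold higher in the splenic and 428 (8.79%) at least 2-fold higher in the intestinal ones, a difference between 1 library of each tissue. Gzma was at 218 CPM in the splenic and 29036 CPM in the intestinal cells, a log2 ratio of splenic to intestinal of -7.06 [-7.31 to -6.82]. Gzmb was at 3509 and 14134 CPM (-2.01 [-2.07 to -1.95]), whereas Ccl4 was higher in the splenic cells, at 5295 against 1429 CPM (1.89 [1.83 to 1.95]). S100a4 (4.82 [4.46 to 5.20]), Ccr2 (2.39 [2.07 to 2.72]), Pdcd1 (1.81 [1.57 to 2.06]) and Klf2 (3.74 [3.31 to 4.19]) were higher in the splenic cells. Itgae, which encodes the gut integrin CD103 (-6.91 [-12.22 to -4.43]), Ccr9, a receptor for homing to the small intestine (-3.90 [-4.96 to -3.01]), and Cd69 (-2.98 [-3.66 to -2.37]) were lower. Il10 and Havcr2 were close, with ratios of -0.09 [-0.25 to 0.07] and 0.29 [-0.03 to 0.61]. The intestinal cells also held cells with CD8 transcripts, with 936 UMIs of Cd8a against 0 in the splenic cells. A UMI of Cd8a or Cd8b1 was seen in 17.6% of the intestinal cells. The part of such cells, and of free RNA, in these differences was not tested.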

How the data were processed

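The deposited matrices hold UMI counts of genes by barcodes, made by the authors, who trimmed the reads (Trimmomatic), aligned them to mm10 and counted UMIs with Cell Ranger, without normalization. The notes of the submitters list mm8 beside mm10, and their tool versions are not given in the sources used here. Members and lists were chosen with earlier results of these data known. UMIs were summed over the cells of a group and divided by the UMIs of the group, times 1000000 (CPM). Levels have exact Poisson, shares exact binomial (Clopper-Pearson) and ratios exact conditional binomial 95% intervals. PCR duplicates are removed by UMIs, and all intervals cover counting error only. Genes with at least 100 UMIs in both groups together were compared, and a 2-fold difference was counted without a test. A gene at 0 was set at a floor of 3 UMIs over the group (4.70 CPM in the members). Named genes were the 15 highest and 15 lowest by the interval bound nearest 0, the 4 largest differences of each list, and genes needed to describe it. Some items are not reported here and were left out of the lists, and the set of cells with Ccr7 and Tcf7 was chosen after seeing the data. The calculation of ratios was checked on simulated Poisson counts, which the intervals also assume. Variation between cells was not simulated. Doublets were not called, and the 5% of cells with most UMIs were left out as an alternative. Leaving out cells with an NK receptor UMI, and the top cell of each gene, were alternatives added after seeing the data. The reporter rows (eGFP, mRFP) had too few UMIs to use. Positions are from GENCODE on GRCm38. Software versions were 3.11.15 (Python), 2.4.6 (numpy), 1.17.1 (scipy) and 3.10.9 (matplotlib).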

Additional observations from a re-analysis of the deposited data

Results flagged for a closer look

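4 of the listed genes with at least 100 UMIs in each comparison stood on opposite sides in the libraries, at least 1.5-fold each way with intervals that excluded 0. Ccr2, a receptor for inflammatory chemokines, had a log2 ratio of Ccl5-high to other cells of 2.22 [1.91 to 2.52] in spleen and -2.49 [-2.81 to -2.17] in small intestine. Serpinb1a, a protease inhibitor, had 0.99 [0.51 to 1.46] and -2.43 [-2.64 to -2.22]. S100a4, a calcium-binding protein of effector T cells, had 0.89 [0.72 to 1.07] and -1.15 [-1.81 to -0.43]. Il18r1, the IL-18 receptor, had 0.80 [0.11 to 1.43] and -0.70 [-1.06 to -0.33]. The leading gene Serpina3f, under 100 UMIs in small intestine and so not counted, had 3.27 [2.89 to 3.65] and -1.96 [-3.32 to -0.50]. In spleen 145 UMIs of Ccr2 came from 47 members, and 18.8% of the 48 UMIs of Serpinb1a from a single one. The groups compared were unlike in the 2 tissues. The 5 Th17 genes summed to 9.74 CPM in intestinal Ccl5-high and 856 CPM in other intestinal cells, but to 0 and 19.95 CPM in spleen. A UMI of Cd8a or Cd8b1 was seen in 17.6% and 2.98% of these intestinal groups, and in 2.24% and 6.02% of the splenic ones. The part of such cells in these ratios was not tested. Each tissue is 1 library, so the difference between tissues was not tested.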

How the results depend on the processing

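The number of genes past 2-fold depended on the UMIs required. A lower minimum also admits more genes, and the cause of the change was not tested. With a minimum of 50 UMIs 183 genes were at least 2-fold higher and 414 lower in splenic Ccl5-high cells, with 300 UMIs 35 and 60, and with at least 1 UMI in each group 1089 and 785, while the intestinal numbers were 261 and 308, 58 and 37, and 558 and 1745. After thinning to 2000 UMIs there were 50 and 124 in spleen and 75 lower ones in small intestine. Against cells without a Ccl5 UMI 126 were lower in spleen, and 635 were lower in small intestine, where only 6 cells had none. Without cells that had an NK receptor UMI, an alternative chosen after seeing the data, 80 were higher and 73 lower in small intestine. The share of Ccl5-high cells moved with the limit, to 9.48% of splenic cells at 1%, and to 84.2% of intestinal cells at 1% and 88.9% at 0.25%. At least 3 of the 5 co-inhibitory and TR1-associated genes were seen in 20% of members and 5.66% of other splenic cells at 3000 UMIs, and in 27.6% and 12.4% without thinning. The log2 ratios of 38 named genes were recomputed under 14 of 21 settings except where the setting removes the gene itself (Ccl5, Klrc1 and Klrd1 in 1 setting each). None of the values changed sign, and 72 moved out of the main interval while 457 did not. The median over all genes in spleen was 0.02 with Ccl5 left out of the totals. No paired analysis was possible because each tissue had a single library.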
